A study of Mus musculus with 8 samples.

Results

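Whole lungs of 2 bone marrow chimeras that carried the LysM-DTR transgene in both marrow and recipient (LL) were compared with those of 2 chimeras that were wild type on both sides (WW). These are 4 of the 8 arrays of the study, 1 mouse per array, grouped by their genotype labels. All mice were male, 22 weeks old and killed 72 hours after diphtheria toxin, which the WW mice received too. No array of a mouse without toxin was analysed, so toxin given to a wild-type lung and the untreated state cannot be told apart here. The remaining mice carried the transgene in the recipient alone (WL, 2 mice) or in the marrow alone (LW, 2 mice). LysM-DTR places the diphtheria toxin receptor under the lysozyme M promoter. How completely donor marrow replaced the recipients' blood and lung macrophages, and how the toxin was given, is not given in the sources used here. The study's title presents these mice as models of acute lung injury and asks for growth factors of repair and for biomarkers. Of 37074 gene names on the array, 25338 had a probe well above background on both arrays of LL or of WW and were tested.

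Diphtheria toxin binds the membrane form of heparin-binding EGF-like growth factor, enters through endosomes, and inactivates elongation factor eEF2 at its diphthamide residue, which stops protein synthesis. Mouse cells bind the toxin poorly, so a transgenic receptor makes the cells that express it sensitive. The lysozyme M gene, Lyz2, is active in neutrophils, monocytes and macrophages. It is also active in alveolar type 2 cells, the surfactant-making cells of the alveolus that also renew the flat type 1 cells lining the air space. A transitional state with raised keratins lies between both cell types during repair.

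The level of a gene is the log2 of its processed intensity minus the 75th percentile of its array, so that a level of 0 is the brightness below which 75% of the array's probes lie. Levels of different genes come from different probes and are not compared with each other. Differences are LL minus WW on this log2 scale, with the standard error (SE) and the Benjamini-Hochberg adjusted p of limma fitted to these 4 arrays. A gene is called higher or lower at an adjusted p under 0.05. Where neither array of a group measured a gene well above background, only a lower bound for its fold is given, taken against the dimmest signal that counted as above background.

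The promoter of Lyz2, which directs the transgene in these mice, is shown here because the comparison turns on the cells that use it. The run is the 250 bases before the start of the gene in RefSeq (GRCm38.p6, chr10:117282273-117282522, minus strand). Capitals mark AGGAAGT on either strand, the core letters bound by PU.1, a transcription factor of macrophages and other myeloid cells.
Lyz2: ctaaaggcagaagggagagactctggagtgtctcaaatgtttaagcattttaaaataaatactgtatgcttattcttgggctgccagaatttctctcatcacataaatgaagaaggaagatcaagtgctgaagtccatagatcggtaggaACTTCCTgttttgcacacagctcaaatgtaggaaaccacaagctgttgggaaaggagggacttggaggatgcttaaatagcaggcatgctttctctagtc
Counted from the start, the capitals lie at -100 to -94. This match is a description of the letters and not evidence of binding.

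Transcripts of both lysozyme genes were low in both LL lungs. Lyz2, the lysozyme whose promoter drives the receptor, had levels of 4.67 and 4.94 in LL and 9.05 and 9.09 in WW. The Lyz2 difference was -4.27 (SE 0.14, adjusted p = 0.00397), or 19.2-fold lower, and the other Lyz2 probe moved the same way. Its neighbour Lyz1, the lysozyme of type 2 cells in mouse lung, had levels of 2.77 and 3.14 in LL and 7.499 and 7.54 in WW, a difference of -4.57 (SE 0.17, adjusted p = 0.00397). Both LL mice lay far below both WW mice for each lysozyme. Whether the probe of either lysozyme also detects the other's transcript was not tested. The Lyz2 probe lies at chr10:116714450-116714509 and the Lyz1 probe at chr10:116724862-116724921 on mm9, the build of the array annotation. In the mice with the transgene on 1 side, Lyz2 stood at 8.697 and 7.36 in WL and at 8.99 and 8.84 in LW.

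Genes through which the toxin enters and acts were measured as well. Hbegf, the mouse form of the toxin's receptor and a growth factor for epithelium, rose from 2.299 and 2.18 in WW to 4.12 and 4.002 in LL, a difference of 1.82 (SE 0.12, adjusted p = 0.00541), with its other probe moving the same way. Whether the probe also detects the transgene was not tested; WL, with the same recipient genotype, had 2.39 and 4.09. Of the 11 genes of toxin entry and target, 7 were called higher and 0 lower, beside 13.8% called higher and 11.8% called lower among all 25338 genes. They were Hbegf and 6 genes of diphthamide synthesis: Dph1 (0.87), Dph2 (0.54), Dph3 (0.65), Dph5 (0.94), Dph6 (0.67) and Dnajc24 (0.87). The Dph3 difference is negative in the mean of its probes. Eef2, the toxin's target, did not pass (6.58 and 6.73 in LL and 6.49 and 6.54 in WW). With LL 1, LL 2, WW 1 or WW 2 left out, 3, 1, 1 and 1 of the 11 were called higher. Dph1, Dph2, Dph3, Dph5, Dph6 and Dnajc24 lost their calls when 1 of the mice was left out (1 or more of LL 1, LL 2, WW 1 and WW 2), with an adjusted p of up to 0.156 (Dph2, without WW 2).

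Over all genes, 6469 (25.5%) were called, 3486 higher and 2983 lower in LL. Differences larger than 1 on the log2 scale were called for 1372 higher and 1582 lower genes, and larger than 3 for 97 higher and 224 lower genes. Both LL mice lay above both WW mice for 37.7% of the genes tested and below them for 32.4%. Across genes, levels of the LL mice correlated with each other at 0.990 and those of the WW mice at 0.992, against 0.954 to 0.955 between an LL and a WW mouse. All 4 arrays lay on 1 slide and in 1 scan, with LL in column 1 and WW in column 2, so slide position and genotype cannot be told apart. The 75th percentile intensity of these arrays ran from 208.6 to 249.6, the share of probes well above background from 66.7% to 72.3%, and no spot was saturated. Nothing in the labels says more about what the replicates of a group share, so p-values measure the spread between these mice alone.

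With 2 mice per group, calls depend on each mouse. Without LL 1, LL 2, WW 1 or WW 2 the count of called genes was 4436, 3074, 1863 and 1770. All 6469 genes kept their direction in each of these fits, 1227 were called in all 4, and 2254 in none of them. The genes were called on these same mice, so their kept direction is not an independent check. The mouse that stands alone in such a fit is assumed to vary like the mice of the other group. Where 4 counts with a mouse left out stand beside a list below, they are given in that order: without LL 1, LL 2, WW 1 and WW 2.

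**Figure D1:**
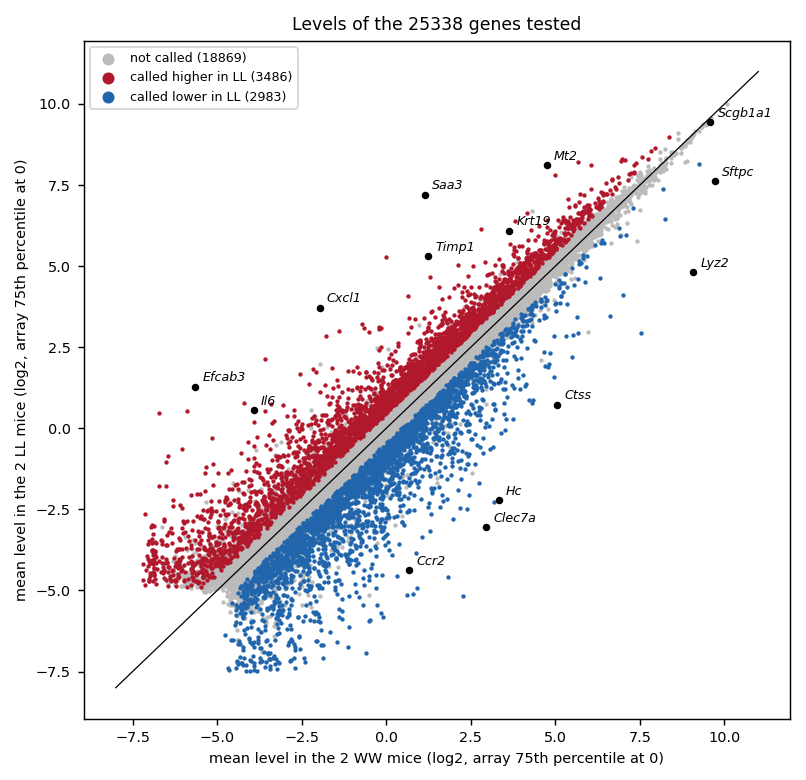
Mean level of each of the 25338 tested genes in the 2 WW mice (horizontal axis, log2) and the 2 LL mice (vertical axis, log2); red marks the 3486 genes called higher and blue the 2983 called lower. Points below the diagonal are lower in LL: Lyz2, Sftpc, Ctss, Hc, Clec7a and Ccr2 lie far below it, and Saa3, Cxcl1, Timp1, Il6 and Mt2 far above it.

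The LL mice were alike for most lists of marker and pathway genes but differed in blood cell transcripts. Averaged over the 14 tested genes of the red cell lineage, LL 1 lay -0.99 from the WW mean and LL 2 0.47. For 24 genes of mature neutrophils the values were -1.53 and -0.04. Hbb-b1, an adult beta globin, had levels of 1.86 and 4.59 in LL and 3.52 and 3.502 in WW, so that the WW mice lay between both LL mice. The LL mice were more than 2 apart for 154 genes and the WW mice for 88. The part of residual blood or of neutrophils in the LL values below was not tested; genes that mark them are given with both mice.

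**Figure D2:**
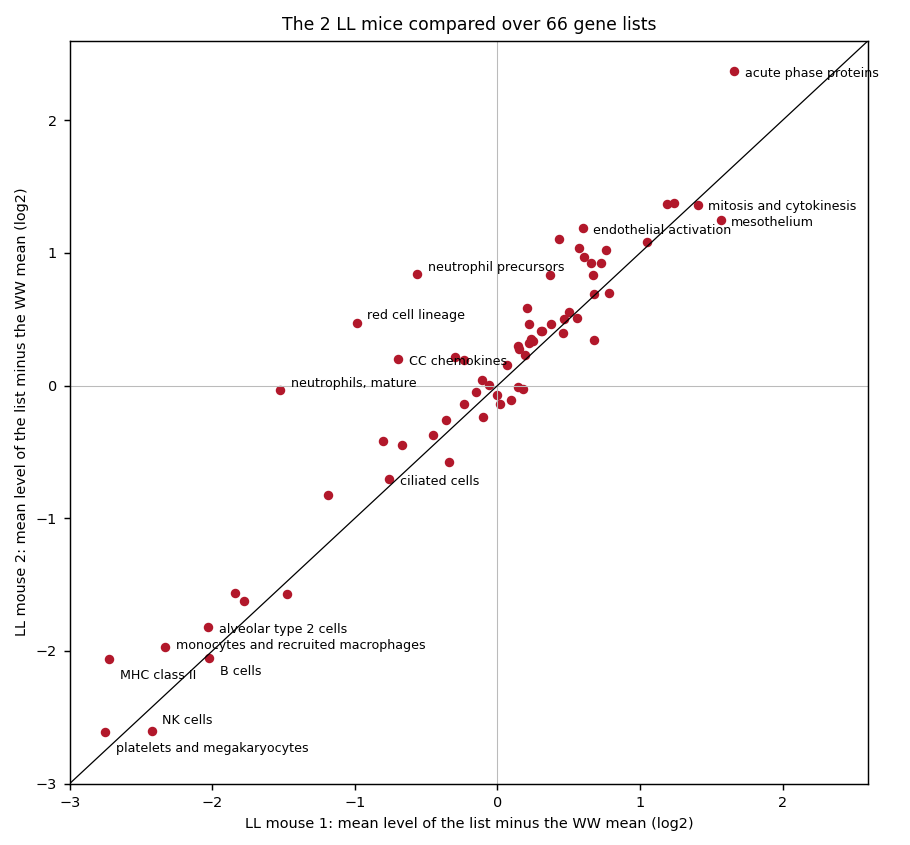
Mean level of each of 66 gene lists relative to the WW mean (log2) in LL mouse 1 (horizontal axis) and LL mouse 2 (vertical axis), with the line of equality. Most lists lie near the line; the red cell lineage (-0.99 and 0.47), mature neutrophils (-1.53 and -0.04) and neutrophil precursors (-0.56 and 0.84) lie above it, lower in mouse 1.

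Monocyte and macrophage genes fell strongly in LL. Of 34 genes of monocytes and recruited macrophages tested, 21 were lower (20, 21, 13 and 14 with a mouse left out) and 3 higher, with a median difference of -2.46, beside a median of 0.03 over all genes. Over the 28 above background on all 4 arrays, 16 were lower and 2 higher, with a median of -1.68. In whole lung, fewer cells of a type and less RNA per cell cannot be told apart. Ccr2, the receptor that draws monocytes out of the blood, had levels of -4.68 and -4.09 in LL and 0.64 and 0.72 in WW, a difference of -5.06 (SE 0.23, adjusted p = 0.00402). Adgre1, which encodes the macrophage marker F4/80, had levels of -4.12 and -2.21 in LL and 1.27 and 1.32 in WW. For both genes each LL mouse lay several units below each WW mouse. Clec7a, the beta-glucan receptor dectin-1, showed -3.53 and -2.58 in LL and 2.77 and 3.13 in WW, a difference of -6.01 (SE 0.36, adjusted p = 0.00505) or 64.5-fold, among the largest of all genes above background on the 4 arrays. Cd68, a lysosomal protein of macrophages, stood at -0.05 and 0.24 in LL and 2.303 and 2.399 in WW, and the protease cathepsin S, Ctss, at 0.37 and 1.08 in LL and 5.07 and 5.01 in WW. Cx3cr1, the fractalkine receptor of monocytes (-6.41), and Ms4a7 (-5.84) were well above background on 1 of the LL arrays alone. Fcgr1, the high-affinity IgG receptor, and the haemoglobin scavenger receptor Cd163 were not well above background on either LL array; Fcgr1 was at least 13.9-fold lower (group means -5.63 and -1.29, adjusted p = 0.0111) and Cd163 at least 9.30-fold lower (-6.21 and -1.93, adjusted p = 0.00651). Among these genes, Adgre1 and Fcgr1 lost their calls when 1 of the mice was left out (1 or more of WW 1 and WW 2), with an adjusted p of up to 0.0695 (Adgre1, without WW 2).

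The 3 chains of C1q, the starter of the classical complement pathway that lung macrophages make, fell together. C1qa stood at -3.701 and -3.97 in LL and 0.99 and 0.79 in WW, C1qb at -2.77 and -2.98 in LL and 0.60 and 0.35 in WW and C1qc at -2.13 and -2.86 in LL and 2.41 and 2.35 in WW, and their probes lie within chr4:136436578-136452468 on mm9. The differences were -4.73 (SE 0.15, adjusted p = 0.00397), -3.35 (SE 0.15, adjusted p = 0.00402) and -4.88 (SE 0.27, adjusted p = 0.00467). Csf1r, the receptor for macrophage colony-stimulating factor, fell less (-1.29, SE 0.15), as did Apoe, a lipid carrier that other lung cells express too (-0.64, SE 0.11). Not all genes on the list fell. Trem2, a lipid receptor of macrophages, rose from 1.16 and 1.04 in WW to 1.996 and 2.42 in LL (1.11, SE 0.18, adjusted p = 0.0213). Arg1, arginase, rose by 1.61 near background (-3.302 and -3.199 in LL and -5.25 and -4.47 in WW; well above background on 1 WW array). Ly6c2 rose by 1.29 (8.08 and 8.39 in LL and 6.99 and 6.899 in WW) with its near-identical neighbour Ly6c1 (1.22), which lung endothelium expresses; their probes may detect each other's transcript, so Ly6c2 cannot be read as a monocyte gene here. In left-out fits, Csf1r, Apoe, Trem2, Arg1, Ly6c2 and Ly6c1 lost their calls when 1 of the mice was left out (1 or more of LL 1, LL 2, WW 1 and WW 2), with an adjusted p of up to 0.108 (Apoe, without WW 2).

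Genes of alveolar macrophages, which reside in the air space, fell in part. Among 20 genes of alveolar macrophages, 11 were lower (11, 12, 8 and 8) and 0 higher, with a median of -1.43. Ear2, an eosinophil-associated ribonuclease made by these cells, had 0.77 and 0.97 in LL and 4.096 and 4.32 in WW, and its relative Ear1 differed by -2.55 (SE 0.10); the family is closely similar in sequence. Siglecf, a sialic acid receptor of alveolar macrophages and eosinophils, was not well above background on the LL arrays and was at least 16.4-fold lower (means -6.12 and -1.11, adjusted p = 0.00734). Itgax, which encodes CD11c and is shared with dendritic cells, fell by 4.52 (-2.73 and -1.401 in LL and 2.38 and 2.54 in WW). Mrc1, the mannose receptor, fell by 2.38 (SE 0.18) and Atp6v0d2, a proton pump subunit, by 2.08 (SE 0.16). Pparg, the transcription factor that the cells need and that other lung cells share, fell by 0.72. Chil3, a chitinase-like protein of alveolar macrophages and neutrophils, did not pass (1.35 and 4.58 in LL and 5.79 and 6.16 in WW, adjusted p = 0.12), with LL 1 below LL 2 as for the neutrophil genes. Marco, a scavenger receptor, did not pass either (-1.23 and -0.43 in LL and 1.73 and -0.39 in WW). The call of Pparg was lost when 1 of the mice was left out (1 or more of LL 1, LL 2, WW 1 and WW 2), with an adjusted p of up to 0.16 (Pparg, without WW 2).

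The promoter letters of the macrophage list were read against all promoters in RefSeq. Of 34 tested genes, 28 matched by symbol, with 38 promoters, each from 250 bases before the start to 50 after. AGGAAGT on either strand stood in 34.2% of them (13 of 38) and in 9.35% of 32851 promoters of that length. It also stood in 23.8% of 21 promoters of the transitional list below. Ms4a6b, a membrane protein of myeloid cells and lymphocytes that fell from -0.86 and -0.61 in WW to -3.89 and -3.83 in LL (-3.13, SE 0.13, adjusted p = 0.00397), is printed because it holds 2 copies and was called (GRCm38.p6, chr19:11518309-11518558, plus strand, the 250 bases before the start).
Ms4a6b: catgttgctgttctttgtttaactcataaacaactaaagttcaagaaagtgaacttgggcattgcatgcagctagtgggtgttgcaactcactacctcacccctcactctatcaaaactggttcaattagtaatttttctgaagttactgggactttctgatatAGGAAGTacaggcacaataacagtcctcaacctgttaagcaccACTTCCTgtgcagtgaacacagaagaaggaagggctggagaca
Capitals mark the copies, at -86 to -80 and -43 to -37 from the start.

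Genes of antigen-presenting cells were lower as well. Of 17 dendritic cell genes tested, 12 were lower (10, 10, 6 and 6) and none higher, with a median of -1.43. Over the 15 above background on all 4 arrays, 10 were lower, with a median of -0.80. Cd209a, the DC-SIGN of monocyte-derived dendritic cells, had -6.38 and -5.01 in LL and -0.10 and -0.23 in WW. The difference was -5.53 (SE 0.48, adjusted p = 0.0078). These LL values lay below those of the platelet gene Gp9 (-5.32 and -4.95), which was not well above background in LL. The size of the Cd209a fall is therefore uncertain. Clec9a, the dead-cell receptor of cross-presenting dendritic cells, differed by -4.14 (SE 0.21) and was well above background on 1 of the LL arrays. Ccr7, which guides dendritic cells and T cells to lymph nodes, had 0.17 and 0.14 in LL and 3.03 and 2.85 in WW, both LL mice nearly 3 units below the WW mice. Cd207, langerin, was at least 9.22-fold lower (means -6.69 and -1.94, adjusted p = 0.01). MHC class II genes, which present peptides to CD4 T cells, fell together: 9 of 11 were lower (10, 10, 6 and 6), median -2.81. H2-Aa had -0.37 and 0.50 in LL and 3.13 and 2.95 in WW, H2-Eb1 2.98 and 3.94 in LL and 6.61 and 6.61 in WW and the invariant chain Cd74 2.47 and 3.38 in LL and 5.66 and 5.68 in WW. In each, LL 1 lay almost 1 unit below LL 2 and both lay far below WW. Over all genes, 25.5% were called, and both LL mice lay above both WW mice for 37.7% and below them for 32.4%. By contrast, of 14 genes of MHC class I and the immunoproteasome 1 was called, lower in LL, and its call was lost in every left-out fit; both LL mice lay above both WW mice for 1 gene and below for 3. Cd74 lost its call when 1 of the mice was left out (1 or more of WW 1 and WW 2), with an adjusted p of up to 0.0546 (Cd74, without WW 2).

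Platelet and megakaryocyte genes fell with a median of -2.77: 11 of 15 tested were lower (9, 11, 9 and 6) and none higher. Over the 9 above background on all 4 arrays, 6 were lower, with a median of -1.33. Pf4, the platelet chemokine CXCL4, had -0.49 and -0.81 in LL and 2.86 and 3.26 in WW, a difference of -3.71 (SE 0.20, adjusted p = 0.00464). Clec1b, the podoplanin receptor CLEC-2, had -3.21 and -3.48 in LL and 0.77 and 1.34 in WW, a difference of -4.403 (SE 0.24, adjusted p = 0.00465). No LL value approached a WW value for these genes. Gp9 and Gp1ba, chains of the von Willebrand factor receptor, were not well above background in LL, and Gp9 was at least 52.4-fold lower (means -5.14 and 0.62, adjusted p = 0.00478), while Gp1ba was at least 8.43-fold lower (means -6.55 and -2.07, adjusted p = 0.00717). Ppbp, the platelet chemokine CXCL7, fell by 7.43 and was well above background on 1 LL array. Beside this, 1 of 14 red cell genes was called, the erythropoietin receptor Epor (-1.005 and -1.19 in LL and -0.05 and -0.17 in WW), and the globin and heme genes spread as given above (Alas2, -0.38 and 2.65 in LL and 1.24 and 1.33 in WW). Without LL 1 the red cell counts were 6 higher and 2 lower, and without LL 2 they were 0 and 6. Among these genes, Epor lost its call when 1 of the mice was left out (1 or more of WW 1 and WW 2), with an adjusted p of up to 0.0674 (Epor, without WW 1).

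Most lymphocyte genes fell. Natural killer cell genes had a median of -2.63, with 14 of 16 lower (14, 15, 12 and 12). Over the 11 above background on all 4 arrays, 9 were lower, with a median of -2.47. Gzma, the protease granzyme A, had 0.47 and 0.72 in LL and 3.24 and 3.19 in WW. Klrd1, which encodes CD94, had -3.63 and -3.54 in LL and 0.00 and -0.06 in WW. S1pr5, the sphingosine phosphate receptor by which natural killer cells leave the marrow, was at least 12.998-fold lower (means -6.58 and -1.45, adjusted p = 0.00647). T cell genes had a median of -1.66, with 16 of 21 lower (14, 13, 14 and 13). Cd3d, a chain of the T cell receptor complex, stood at -0.39 and -0.45 in LL and 1.79 and 2.16 in WW. Cd8a stood at -4.66 and -5.25 in LL and -2.26 and -2.33 in WW. The LL 2 value of Cd8a lay below that of the platelet gene Gp9, which was not well above background there. Cd4 did not pass (2.701 and 2.86 in LL and 2.88 and 2.85 in WW), at like levels in all 4 mice, although Cd5 (-2.33) and the T cell factor Bcl11b (-2.15) fell. B cell genes had a median of -2.27, with 14 of 17 lower (14, 14, 13 and 12). Ms4a1, which encodes CD20, had -0.53 and -0.996 in LL and 1.7 and 2.06 in WW, and the complement receptor Cr2 had -1.67 and -2.32 in LL and 1.22 and 1.52 in WW. With a mouse left out, the lower counts of these 3 lists ran from 12 to 15. Ltb, the lymphotoxin made by lymphocytes, fell from 2.93 and 3.52 in WW to 0.64 and 0.51 in LL (-2.65, SE 0.23, adjusted p = 0.00784).

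Granulocyte genes did not share 1 direction. Of 24 genes of mature neutrophils, 2 were higher and 3 lower, 20.8% beside the 25.5% of all genes (higher counts 3, 3, 1 and 1; lower 3, 8, 2 and 2). Cxcr2, the receptor for the neutrophil chemokines, had -3.72 and -2.92 in LL and -0.63 and 0.57 in WW, a difference of -3.296 (SE 0.50, adjusted p = 0.0186). Ly6g, a neutrophil surface protein, rose (3.19 and 3.47 in LL and 1.91 and 1.61 in WW; 1.57, SE 0.17, adjusted p = 0.0109). S100a8 and S100a9, the calprotectin chains that fill the neutrophil cytosol, did not pass: S100a9 had 4.72 and 7.21 in LL and 6.38 and 7.49 in WW. LL 1 lay below and LL 2 within the WW range for it. Il1b, the cytokine interleukin-1 beta, had -3.003 and 0.25 in LL and 2.402 and 2.67 in WW and missed the threshold (adjusted p = 0.0707). Of 10 neutrophil precursor genes, 2 rose, 1 fell and 7 did not pass (higher counts 3, 1, 1 and 1; lower 2, 3, 0 and 0). That is 30.0% called, beside the 25.5% of all genes. Ltf, the iron-binding lactoferrin that glands also secrete, rose from 2.15 and 2.46 in WW to 4.099 and 4.59 in LL (2.04, SE 0.22, adjusted p = 0.0108). Of mast cell, basophil and eosinophil genes, 4 of 12 fell and Tpsb2, a mast cell tryptase, rose (1.61 and 1.77 in LL and -0.26 and -0.25 in WW; 1.95, SE 0.12, adjusted p = 0.00515); the lower count was 4 without an LL mouse and 0 without a WW mouse. In left-out fits, Cxcr2 lost its call when LL 1 was left out, with an adjusted p of up to 0.0594 (Cxcr2, without LL 1).

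**Figure D3:**
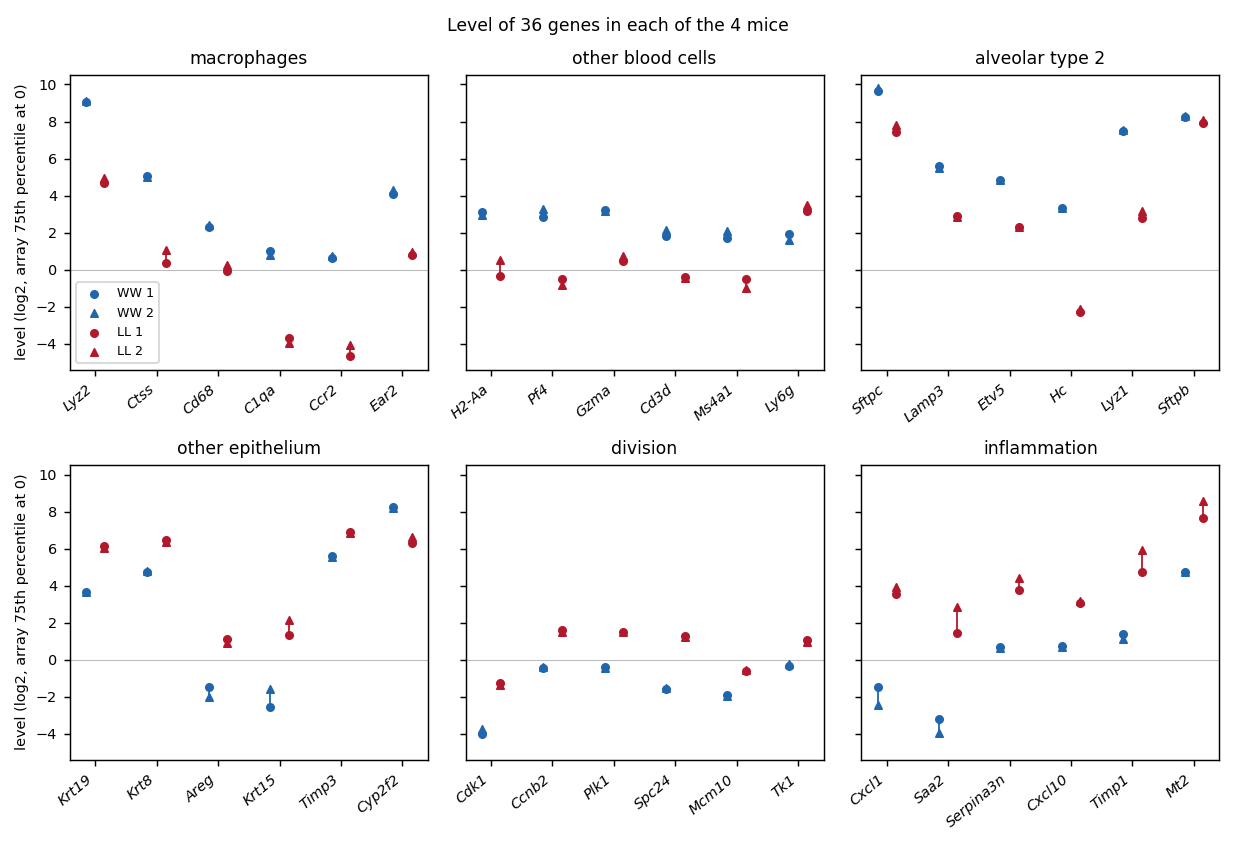
Level (log2, array 75th percentile at 0) of 36 genes in each of the 4 mice, WW in blue and LL in red, circles for mouse 1 and triangles for mouse 2, joined within a group. In all genes shown except Sftpb, for which no call was made, the LL and WW mice lie apart by more than the mice of a group do: Lyz2, Sftpc and Cdk1 show the fall of macrophage and type 2 cell genes and the rise of division genes.

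Type 2 cell genes fell nearly as a whole. Of 24 tested, 21 were lower (18, 19, 12 and 14) and 1 was higher, with a median of -1.99; LL 1 lay -2.03 and LL 2 -1.82 from the WW mean. Sftpc, surfactant protein C and the gene that defines the cell, had 7.41 and 7.83 in LL and 9.63 and 9.81 in WW, a difference of -2.102 (SE 0.19, adjusted p = 0.00809) or 4.29-fold. Lamp3, a membrane protein of the lamellar bodies that store surfactant, had 2.91 and 2.85 in LL and 5.57 and 5.49 in WW. Etv5, the transcription factor that keeps type 2 cell identity, had 2.304 and 2.32 in LL and 4.84 and 4.86 in WW, a difference of -2.54 (SE 0.10, adjusted p = 0.00397). The replicates of these genes lay within 0.5 of each other, against differences above 2. Napsa, the protease that trims surfactant proteins (-2.24, SE 0.11), Slc34a2, the phosphate transporter (-2.22, SE 0.19), and Lpcat1, an enzyme of surfactant lipid synthesis (-1.87, SE 0.12), fell in the same range, although the other Slc34a2 probe moved the other way. Abca3, the lipid pump of lamellar bodies, fell less (-0.93, SE 0.10), as did Sftpa1 (-1.12, SE 0.11). Calls of Abca3 and Sftpa1 were lost when 1 of the mice was left out (1 or more of WW 1 and WW 2), with an adjusted p of up to 0.0624 (Abca3, without WW 2).

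Sftpb and Sftpd, unlike Sftpc and Sftpa1, were not called. Sftpb stood at 7.91 and 8.11 in LL and 8.23 and 8.29 in WW and Sftpd at 7.199 and 7.44 in LL and 7.55 and 7.58 in WW, with adjusted p-values above the threshold (adjusted p = 0.207 and 0.234). Both are made by club cells too. The largest falls on the list were of genes other than the surfactant proteins: Hc, complement component C5, had -2.32 and -2.13 in LL and 3.32 and 3.33 in WW, a 46.9-fold difference. Lgi3, a secreted protein of type 2 cells, had -1.59 and -1.26 in LL and 2.05 and 1.799 in WW, and Egfl6, an EGF-like matrix protein, was at least 8.57-fold lower (means -6.55 and -2.05, adjusted p = 0.00724). Acoxl, an acyl-CoA oxidase-like gene outside the list, fell by 5.45 (-1.996 and -2.53 in LL and 3.08 and 3.29 in WW). Ctsh, cathepsin H, which type 2 cells share with other cells, was the member that rose, from 5.85 and 5.83 in WW to 6.99 and 7.42 in LL (1.36, SE 0.18, adjusted p = 0.014), with 2 of its 3 other probes moving the same way. Of 24 lipid synthesis genes 4 fell and 2 rose, 25% beside the 25.5% of all genes; the largest falls were those of the desaturase Scd1 (0.86 and 1.604 in LL and 4.01 and 3.54 in WW) and the fatty acid synthase Fasn (4.46 and 4.59 in LL and 5.93 and 5.801 in WW). The left-out counts were 3, 2, 1 and 2 lower and 1, 0, 0 and 1 higher. Of 18 epithelial transcription factors, 4 were lower, Etv5, Cebpa (-1.69, SE 0.12), Elf5 (-1.21, SE 0.11) and Nkx2-1 (-0.89, SE 0.13), which specify the distal lung, and 2 were higher, Sox9 (1.04) and Klf5 (1.11; its other probe moved the other way), with left-out counts of 4, 4, 3 and 3 lower and 1, 1, 1 and 1 higher. Ctsh, Scd1, Nkx2-1, Sox9 and Klf5 lost their calls when 1 of the mice was left out (1 or more of LL 1, LL 2, WW 1 and WW 2), with an adjusted p of up to 0.0969 (Sox9, without LL 2).

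Type 1 cell genes moved the other way by a smaller amount. Of 21 tested, 8 were higher (4, 4, 1 and 1) and none lower, median 0.47. Pdpn, podoplanin, had 5.99 and 6.45 in LL and 4.78 and 4.71 in WW, a difference of 1.47 (SE 0.19, adjusted p = 0.0132). Timp3, an inhibitor of matrix proteases that other stromal cells also make, had 6.87 and 6.83 in LL and 5.61 and 5.56 in WW, and the proteoglycan Spock2 rose by 1.07. Ager, the receptor RAGE and the most specific type 1 gene on the list, had 8.63 and 8.59 in LL and 8.25 and 8.24 in WW and missed the threshold (adjusted p = 0.0706), though both LL mice and all its 6 other probes were higher. Hopx, a transcriptional cofactor, missed it as well (6.58 and 6.52 in LL and 6.15 and 5.995 in WW, adjusted p = 0.0522). Of 13 genes of ion and water transport, 6 rose, led by the water channels Aqp3 (0.21 and 0.60 in LL and -2.23 and -1.46 in WW) and Aqp5 (0.68) and the sodium channel subunit Scnn1a (5.93 and 6.13 in LL and 4.76 and 4.72 in WW), while Slc26a9, a chloride transporter, fell by 1.43; higher counts were 2, 1, 2 and 2 with a mouse left out. Among these genes, Pdpn, Spock2, Aqp3 and Aqp5 lost their calls when 1 of the mice was left out (1 or more of LL 1, LL 2, WW 1 and WW 2), with an adjusted p of up to 0.112 (Aqp5, without WW 2).

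Genes of the transitional state rose in LL. Of 24 tested, 19 were higher (18, 14, 13 and 11) and 1 was lower, median 1.26, with LL mice at 1.24 and 1.38 above the WW mean. Krt8, the keratin after which the state is often named, had 6.46 and 6.36 in LL and 4.75 and 4.78 in WW, its partner Krt18 7.06 and 7.08 in LL and 5.33 and 5.402 in WW, and Krt19 6.14 and 6.04 in LL and 3.66 and 3.63 in WW. Replicates of these keratins lay within about 0.1 of each other. Krt7 rose by 2.21 (SE 0.13), and Sfn, the cell cycle regulator 14-3-3 sigma, by 1.83 (SE 0.17). Tnfrsf12a, the TWEAK receptor of injured tissue, had 4.34 and 4.39 in LL and 1.7 and 1.41 in WW, a difference of 2.81 (SE 0.14, adjusted p = 0.00444). S100a6, a calcium-binding protein of many stressed cells, rose from 5.75 and 6.34 to 8.095 and 8.13. Cdkn1a, which encodes the cell cycle inhibitor p21, had 4.17 and 4.52 in LL and 2.85 and 2.603 in WW, and Cldn4, a tight junction protein raised in injured alveoli, had -2.54 and -2.55 in LL and -3.79 and -3.77 in WW. Sox4 was the member that fell (-0.70, SE 0.12). In left-out fits, Cdkn1a and Sox4 lost their calls when 1 of the mice was left out (1 or more of LL 1, LL 2, WW 1 and WW 2), with an adjusted p of up to 0.102 (Sox4, without WW 1).

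AP-1 is the family of Fos and Jun dimers, and TGAGTCA or its complement was searched in the promoters of the transitional list. It stood in 4 of 21 promoters (19.0%, from 19 of 24 genes matched), against 5.20% of all 32851. AGGAAGT, the letters read in the macrophage list, stood in 5 of these 21 promoters (23.8%), against 9.35% of all. Cldn4 is printed because it holds 2 copies of TGAGTCA or its complement and was called (GRCm38.p6, chr5:134946935-134947184, minus strand).
Cldn4: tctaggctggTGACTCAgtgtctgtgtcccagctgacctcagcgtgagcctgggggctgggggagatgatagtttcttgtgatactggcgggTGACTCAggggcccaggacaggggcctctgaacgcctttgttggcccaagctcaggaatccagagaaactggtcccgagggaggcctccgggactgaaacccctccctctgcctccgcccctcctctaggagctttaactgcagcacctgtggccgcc
Capitals mark the copies, at -240 to -234 and -158 to -152 from the start.

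Basal cell keratins, which mark the stem cells of the large airways, were also higher. Of 11 basal cell genes, 7 were higher (5, 4, 5 and 4) and none lower, median 0.93. Krt15 had 1.32 and 2.16 in LL and -2.54 and -1.61 in WW, a difference of 3.82 (SE 0.44, adjusted p = 0.0113), Krt14 0.24 and -0.43 in LL and -2.91 and -2.83 in WW, and Krt5 -0.58 and -0.65 in LL and -2.52 and -1.899 in WW. The factor that defines basal cells, Trp63, did not pass and pointed the other way (3.09 and 2.75 in LL and 3.09 and 3.25 in WW; its sign turned with the mean of its probes). Krt13 was at least 2.22-fold higher (means -3.71 and -6.12, adjusted p = 0.0151). Genes of the mesothelium, the sheet that covers the lung, rose in 6 of 10 cases (5, 8, 4 and 4), median 0.94: mesothelin, Msln, had 6.097 and 6.11 in LL and 4.19 and 4.37 in WW, the transcription factor Wt1 1.34 and 1.06 in LL and -0.56 and -0.69 in WW, and the lubricating proteoglycan Prg4 0.95 and 1.799 in LL and -2.203 and -2.35 in WW. All 10 mesothelial differences were above 0. In WL, Wt1 stood at -0.25 and -0.18 and Msln at 4.17 and 5.54. Calls of Krt5 and Krt13 were lost when 1 of the mice was left out (1 or more of LL 1, LL 2 and WW 2), with an adjusted p of up to 0.067 (Krt5, without LL 2).

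Ciliated cell genes were mostly lower, and airway secretory genes moved both ways. Among 19 club and goblet cell genes, 8 fell (5, 4, 4 and 3) and 2 rose (1, 0, 0 and 0). Cyp2f2, the cytochrome P450 of club cells, had 6.31 and 6.603 in LL and 8.26 and 8.22 in WW, a difference of -1.78 (SE 0.14, adjusted p = 0.00713), and Cbr2, a carbonyl reductase, 8.19 and 8.09 in LL and 9.23 and 9.24 in WW. Scgb1a1, the secretoglobin that defines club cells, did not pass (9.44 and 9.45 in LL and 9.49 and 9.68 in WW), while its relative Scgb3a2 fell by 0.79 (7.41 and 7.35 in LL and 8.04 and 8.3 in WW). Agr2, a disulphide isomerase of mucus cells, rose (-0.26 and 0.52 in LL and -2.06 and -1.34 in WW), and Clca1, a goblet cell protein, fell by 4.41 with a wide spread (-5.09 and -3.96 in LL and -1.47 and 1.24 in WW; well above background on 1 LL array). Ciliated cell genes fell in 13 of 19 cases (7, 8, 1 and 1), median -0.68, and all 19 were below 0. Dnah5, a dynein of the ciliary outer arms, had -0.66 and -0.88 in LL and 0.66 and 0.82 in WW, a difference of -1.51 (SE 0.14, adjusted p = 0.00866). The ciliary tip gene Sntn differed by -1.21 (SE 0.16), whereas Foxj1, the factor that switches the ciliary program on, did not pass (1.81 and 1.96 in LL and 1.96 and 2.097 in WW). Cbr2, Scgb3a2, Agr2, Clca1 and Sntn lost their calls when 1 of the mice was left out (1 or more of LL 1, LL 2, WW 1 and WW 2), with an adjusted p of up to 0.133 (Clca1, without LL 1).

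**Figure D4:**
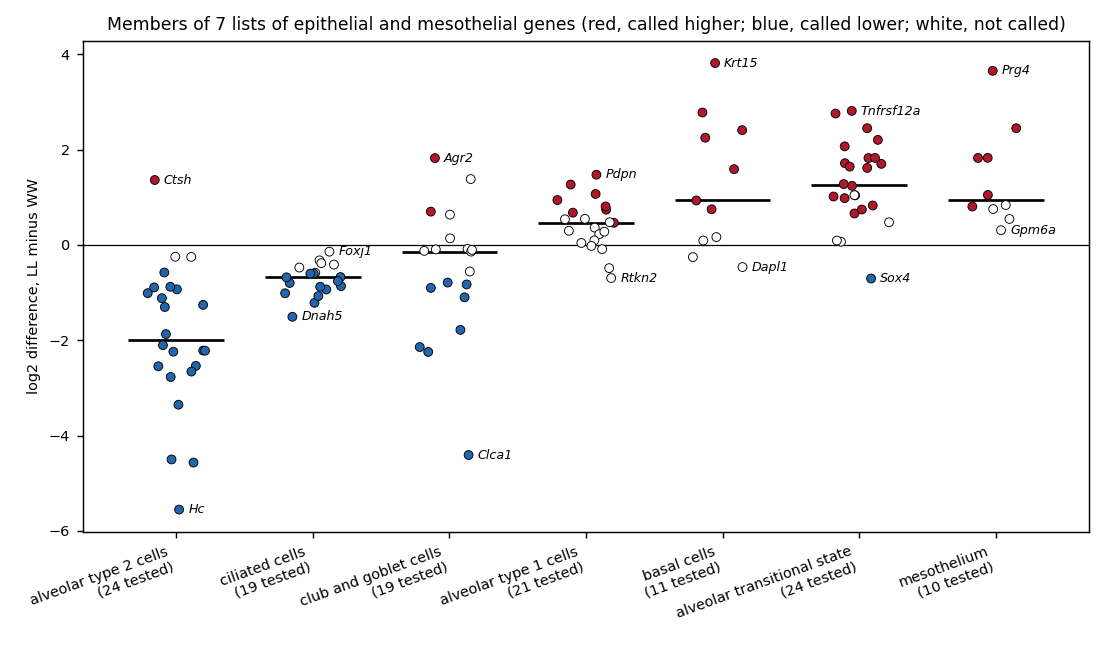
Log2 difference between LL and WW for each tested member of 7 lists of epithelial and mesothelial genes; each point is a gene, filled red where called higher, blue where called lower and white where not called, and bars are list medians. The type 2 cell list lies low (median -1.99, from Hc at -5.55 to Ctsh at 1.36), the transitional list high (median 1.26, from Sox4 at -0.70 to Tnfrsf12a at 2.81), and the ciliated list lies below 0 throughout.

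Cell division genes rose in both LL lungs with little spread. Of 40 genes of mitosis and cytokinesis, 34 were higher (32, 29, 28 and 27) and 1 lower, median 1.42, with LL mice at 1.404 and 1.36 from the WW mean. Cdk1, the kinase that starts mitosis, had -1.26 and -1.39 in LL and -4.03 and -3.77 in WW, a difference of 2.58 (SE 0.14, adjusted p = 0.00467). Its partner cyclin Ccnb2 had 1.58 and 1.51 in LL and -0.47 and -0.41 in WW, and the mitotic kinase Plk1 1.498 and 1.49 in LL and -0.37 and -0.47 in WW. The gap between LL and WW was above 1.8 for these genes, and replicates lay within 0.3. Spc24 of the kinetochore had the largest difference on the list (2.802, SE 0.11), and Ect2, which starts the cleavage furrow (2.45, SE 0.11), and Cdc25c, the phosphatase that releases Cdk1 (2.21, SE 0.11), rose by more than 2. Mki67, the proliferation antigen, had 2.33 and 2.47 in LL and 1.22 and 1.23 in WW, and Foxm1, the transcription factor of mitotic genes, -0.28 and -0.41 in LL and -1.78 and -1.82 in WW. Pttg1, securin, was the member that fell (4.11 and 3.995 in LL and 4.72 and 4.64 in WW). Among these genes, Pttg1 lost its call when 1 of the mice was left out (1 or more of LL 1, LL 2, WW 1 and WW 2), with an adjusted p of up to 0.121 (Pttg1, without WW 1).

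DNA replication genes rose by less. Of 35 tested, 21 were higher (16, 15, 8 and 9) and none lower, median 0.73. Uhrf1, which copies DNA methylation at the fork, had 1.34 and 1.17 in LL and -0.42 and -0.24 in WW, the helicase factor Mcm10 -0.61 and -0.55 in LL and -1.91 and -1.95 in WW, and thymidine kinase Tk1 1.07 and 0.95 in LL and -0.33 and -0.21 in WW. LL and WW mice did not overlap for any of them. Rrm2, the ribonucleotide reductase subunit, rose by 1.495, Ccne1, the cyclin of S phase entry, by 1.09, and Mcm5, a subunit of the replicative helicase, by 1.13. The histone gene Hist1h3g was at least 10.97-fold higher (means -1.39 and -4.98, adjusted p = 0.00805). Among 15 brakes of the cell cycle, Cdkn1a and Cdkn2b (1.33, SE 0.17) rose, while Cdkn1b, which encodes p27 (-0.91, SE 0.12), Rbl2 (-0.94, SE 0.10), Ccng2 (-0.95, SE 0.13) and Btg1 (-0.83, SE 0.16), genes of resting cells, fell. The brakes' lower count was 3, 3, 0 and 0 with a mouse left out. In WL, Cdk1 had -2.21 and -0.77, both above WW, and in LW -3.84 and -4.04. In left-out fits, Rrm2, Ccne1, Mcm5, Cdkn2b, Cdkn1b, Rbl2, Ccng2 and Btg1 lost their calls when 1 of the mice was left out (1 or more of LL 1, LL 2, WW 1 and WW 2), with an adjusted p of up to 0.122 (Btg1, without WW 2).

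Promoters of the division genes share sequence features. The shares below count every tested member of a list, called or not. They describe the lists and not the difference between LL and WW. Mitotic genes are known for CCAAT boxes, which bind NF-Y, and for the CHR element, written TTTGAA or TTCGAA, through which the DREAM and MuvB complexes act. CCAAT on either strand stood in 76.5% of 34 promoters of the mitosis list (32 of 40 genes matched), against 37.4% of all 32851 promoters, the CHR in 73.5% against 19.2%, and both in 64.7% against 7.53%. The E2F letters TTGGCGC or TTCCCGC, on either strand, stood in 54.3% of 35 promoters of the replication list (29 of 35 genes matched) and in 6.81% of all. Each printed run is the 250 bases before the start on GRCm38.p6: Cdk1 and Top2a, the topoisomerase that untangles chromosomes, as mitotic genes with many copies, and Mcm5 as a replication gene.
Cdk1: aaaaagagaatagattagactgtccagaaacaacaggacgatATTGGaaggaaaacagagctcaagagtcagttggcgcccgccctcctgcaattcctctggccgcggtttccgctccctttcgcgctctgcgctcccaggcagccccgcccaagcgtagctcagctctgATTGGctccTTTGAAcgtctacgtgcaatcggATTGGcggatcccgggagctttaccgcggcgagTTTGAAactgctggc
Top2a: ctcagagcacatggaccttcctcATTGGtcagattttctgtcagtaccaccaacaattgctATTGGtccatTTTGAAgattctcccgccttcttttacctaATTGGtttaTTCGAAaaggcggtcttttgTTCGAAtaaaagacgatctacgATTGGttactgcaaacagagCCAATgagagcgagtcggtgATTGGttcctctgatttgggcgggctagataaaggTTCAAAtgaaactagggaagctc
Mcm5: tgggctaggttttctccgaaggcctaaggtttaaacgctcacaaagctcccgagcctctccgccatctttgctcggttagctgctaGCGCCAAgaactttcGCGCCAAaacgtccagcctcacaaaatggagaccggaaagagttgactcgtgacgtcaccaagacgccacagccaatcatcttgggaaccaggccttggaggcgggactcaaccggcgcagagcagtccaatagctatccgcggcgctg
The windows are chr10:69352913-69353162 (minus strand), chr11:99024190-99024439 (minus strand) and chr8:75109259-75109508 (plus strand). Capitals mark CCAAT and the CHR in Cdk1 (5 matches) and Top2a (10 matches), and the E2F letters in Mcm5, at -164 to -158 and -149 to -143 from the start. Top2a rose from -0.85 and -0.80 in WW to 0.71 and 0.76 in LL (1.56, SE 0.11, adjusted p = 0.00571).

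Ribosome production genes rose while ribosomal proteins changed little. Among all genes, both LL mice lay above both WW mice for 37.7%. The share called higher was 13.8% of all genes and 14.3% of the housekeeping list below. Of 18 genes of ribosome biogenesis, 12 were higher (11, 3, 1 and 1), median 0.75, and both LL mice lay above both WW mice for all 18. Nop58, a core protein of the particles that guide ribosomal RNA methylation, had 2.69 and 2.8 in LL and 1.25 and 1.08 in WW, a difference of 1.58 (SE 0.12, adjusted p = 0.00683), and nucleolin, Ncl, 4.04 and 4.22 in LL and 3.01 and 2.98 in WW. Myc, the transcription factor known to drive this program, had -0.34 and 0.53 in LL and -2.36 and -2.28 in WW, a difference of 2.42 (SE 0.32, adjusted p = 0.0138). Of 20 genes of the cytosolic ribosome, 1 was called, Rps2 (5.39 and 5.58 in LL and 4.497 and 4.54 in WW), with a list median of 0.20; that is 5.0% beside the 25.5% of all genes. Among the called genes with the brightest probes, the iron store Fth1 (0.75), the matrix protein Mgp (0.80), the antioxidant enzyme Prdx6 (0.59) and Wdr92 (0.63) rose as well. Housekeeping genes had a median of 0.22 with 2 of 14 called higher (1, 0, 0 and 0). Oxidative phosphorylation genes had a median of 0.27 with 4 of 20 called higher (20%), and none with any mouse left out. Calls of Ncl, Myc, Rps2, Fth1, Mgp, Prdx6 and Wdr92 were lost when 1 of the mice was left out (1 or more of LL 1, LL 2, WW 1 and WW 2), with an adjusted p of up to 0.171 (Prdx6, without WW 2).

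Several ligands of the EGF receptor family rose. Of 13 members tested, 4 rose and 1 fell (5, 3, 3 and 3 higher with a mouse left out), and the list's median of -0.07 and means of 0.72 and 0.93 in the LL mice differ in sign, with the largest differences in few members. Over the 12 above background on all 4 arrays, 3 rose and 1 fell, with a median of -0.09. Among all genes, 13.8% were called higher and 11.8% lower. Areg, amphiregulin, had 1.11 and 0.91 in LL and -1.47 and -2.03 in WW, a difference of 2.76 (SE 0.23, adjusted p = 0.00734) or 6.77-fold. Nrg1, neuregulin 1, a ligand of ERBB3 and ERBB4, had 2.44 and 2.34 in LL and 0.26 and 0.26 in WW, with 3 of its 4 other probes moving the same way. Hbegf completes the group with the values above. Ereg, epiregulin, was not well above background in WW and was at least 14.2-fold higher (means -1.03 and -6.53, adjusted p = 0.0234). The 3 ligands other than Ereg showed replicate gaps below 0.6 in each group. The receptor Egfr did not pass (1.11 and 1.73 in LL and 0.87 and 0.75 in WW), and Nrg4 fell by 0.87. The probes of Cxcl1, Ereg and Areg lie on the same stretch of chromosome 5 (chr5:91322080-91322139, chr5:91522553-91522612 and chr5:91570090-91570149, mm9). Ereg and Nrg4 lost their calls when 1 of the mice was left out (1 or more of LL 1, LL 2, WW 1 and WW 2), with an adjusted p of up to 0.0925 (Nrg4, without WW 1).

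Other growth factors moved in smaller numbers. The list counts in this paragraph stand beside 25.5% of all genes called, 13.8% higher and 11.8% lower. Whether any of these lists differed from those shares was not tested. Adm, the vessel peptide adrenomedullin, had 0.74 and 1.88 in LL and -1.402 and -1.45 in WW, a difference of 2.74 (SE 0.41, adjusted p = 0.0175); Ptn, the heparin-binding pleiotrophin, had 0.01 and -0.33 in LL and -2.06 and -1.54 in WW; and Angptl4, a lipase inhibitor induced by hypoxia and PPAR signals, 5.62 and 6.005 in LL and 4.24 and 4.16 in WW. Of these 20 other growth factors, 5 were higher and 2 lower (higher counts 5, 3, 1 and 1). In the TGF-beta and BMP list 4 of 20 rose and 3 fell (higher counts 4, 1, 3 and 2; lower 1, 0, 0 and 0): the activin inhibitor follistatin, Fst, had -0.42 and 0.31 in LL and -3.07 and -2.71 in WW, a difference of 2.83 (SE 0.29, adjusted p = 0.01), the activin subunit Inhba -0.997 and -0.82 in LL and -2.18 and -2.64 in WW, and Bmp7 rose by 1.296. Both an activin chain and its inhibitor were thus higher. Of 22 Wnt genes, 5 rose and 3 fell (higher counts 3, 2, 2 and 1; lower 4, 2, 2 and 2): the Wnt binders Wif1 and Sfrp1 went opposite ways (Wif1, -2.44 and -2.43 in LL and -0.52 and -0.52 in WW; Sfrp1, -0.61 and -0.45 in LL and -1.94 and -2.26 in WW), and the ligand Wnt9a rose by 1.35. Lef1, a transcription factor of Wnt signalling that T cells express, fell by 1.55. In the VEGF and PDGF list 3 of 16 rose, among them Pgf, placental growth factor (-1.51 and -1.301 in LL and -2.87 and -2.902 in WW), and Vegfc (0.89), and 3 fell, among them the receptors Kdr (3.99 and 3.61 in LL and 4.72 and 4.67 in WW) and Pdgfrb (-0.997); the left-out counts were 3, 4, 1 and 1 higher and 4, 1, 0 and 0 lower. Among these genes, Adm, Ptn, Angptl4, Inhba, Bmp7, Wnt9a, Vegfc, Kdr and Pdgfrb lost their calls when 1 of the mice was left out (1 or more of LL 1, LL 2, WW 1 and WW 2), with an adjusted p of up to 0.109 (Kdr, without WW 1).

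Receptors and carriers of repair factors completed these lists. The share called among IGF genes was 30.0%, beside the 25.5% of all genes. Of 10 IGF genes, the binding proteins Igfbp4 (1.96 and 1.87 in LL and 0.56 and 0.80 in WW) and Igfbp5 (4.46 and 4.26 in LL and 3.12 and 3.26 in WW) rose and 1 gene fell (higher counts 2, 2, 1 and 2; lower 0, 1, 0 and 0). Of 9 genes of the HGF axis 2 were called, 22.2% beside the 25.5% of all genes: Met, the HGF receptor of epithelium, fell (-0.94, SE 0.12), and Mst1r, the receptor of its relative MSP, rose (1.04, SE 0.12). Neither was called without WW 2, and Met was not called without WW 1. Fgf2 rose (-1.34 and -1.28 in LL and -2.596 and -2.35 in WW) and Fgf10, a mesenchymal signal to alveolar epithelium, fell (-1.73 and -1.92 in LL and -1.06 and -1.31 in WW; its other probe moved the other way), among 12 FGF genes with 2 higher and 1 lower, 25% in all (higher counts 2, 1, 0 and 1; lower 1, 0, 0 and 0). Of 17 targets of YAP and TAZ, mechanical effectors of tissue growth, 8 were higher (7, 4, 3 and 2) and 1 lower; Ankrd1 had 3.44 and 3.18 in LL and 2.05 and 1.78 in WW and Gadd45b 4.87 and 4.72 in LL and 2.899 and 3.35 in WW. In left-out fits, Igfbp5, Met, Mst1r, Fgf2, Fgf10 and Ankrd1 lost their calls when 1 of the mice was left out (1 or more of LL 1, LL 2, WW 1 and WW 2), with an adjusted p of up to 0.165 (Fgf10, without WW 1).

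Chemokine genes moved both ways. Among the 11 CXC chemokines above background on all 4 arrays, 5 rose and 2 fell. Cxcl1, a chemokine that draws neutrophils, had 3.53 and 3.91 in LL and -1.49 and -2.46 in WW, a difference of 5.695 (SE 0.37, adjusted p = 0.00541) or 51.8-fold. Cxcl2 had -0.58 and -0.01 in LL and -5.495 and -4.82 in WW and was well above background on 1 WW array. Cxcl5, made by type 2 cells among others, had -0.19 and 1.72 in LL and -3.73 and -3.11 in WW. Their receptor gene Cxcr2 fell, as given above. Cxcl10, an interferon-induced chemokine for T cells, had 3.07 and 3.17 in LL and 0.74 and 0.70 in WW, and Cxcl16 3.07 and 2.94 in LL and 1.36 and 1.28 in WW. Over 15 CXC chemokines 7 rose and 3 fell (8, 6, 5 and 4 higher with a mouse left out); Ppbp and Pf4 of platelets were among the 3. Of 18 CC chemokines, 2 rose and 7 fell (lower counts 6, 5, 4 and 4): Ccl20, which draws CCR6-bearing cells, had 1.86 and 1.65 in LL and -1.12 and -1.15 in WW, and Ccl2, the ligand of CCR2, 1.92 and 4.03 in LL and -0.14 and -0.87 in WW. Ccl6 and Ccl8, made by macrophages, had 1.38 and 1.78 in LL and 4.89 and 5.02 in WW and -2.91 and -1.58 in LL and 1.52 and 1.85 in WW. Ccl5 of T and natural killer cells fell by 2.08 (1.78 and 1.07 in LL and 3.34 and 3.68 in WW). Without LL 1, 6 CC chemokines were called higher in place of 2. Calls of Cxcl5, Ccl2, Ccl8 and Ccl5 were lost when 1 of the mice was left out (1 or more of WW 1 and WW 2), with an adjusted p of up to 0.137 (Ccl2, without WW 2).

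Among cytokines, Il6 rose from -3.32 and -4.51 in WW to -0.30 and 1.403 in LL (4.47, SE 0.72, adjusted p = 0.0207). Of 21 cytokine genes 5 rose and 5 fell (higher counts 4, 3, 2 and 2; lower counts 5, 9, 3 and 1). Csf1, the survival factor of macrophages, rose (2.397 and 3.04 in LL and 1.33 and 1.31 in WW) while its receptor Csf1r fell. Il19, Il23a and Ifnb1 were not well above background in WW and were at least 1.69-fold, at least 1.64-fold and at least 1.60-fold higher (means -4.11 and -7.003, -4.15 and -6.801, and -4.18 and -7.2; adjusted p = 0.0074, 0.0186 and 0.0227). These bounds rest on dim probes. Over the 16 cytokine genes above background on all 4 arrays, 2 rose and 5 fell. Il33, an alarmin of type 2 cells, fell (1.32 and 1.95 in LL and 2.63 and 2.66 in WW), as did Il15 (-0.42 and -0.91 in LL and 0.65 and 0.78 in WW). Of 21 genes of the IL-6 family and STAT3, 10 rose (10, 5, 2 and 2) and 1 fell: Lif had 0.27 and 0.09 in LL and -2.096 and -1.42 in WW, Il11 -0.996 and -0.48 in LL and -2.21 and -2.498 in WW, and the feedback inhibitor Socs3 3.59 and 4.66 in LL and 2.47 and 2.37 in WW. Of 24 Toll-like and IL-1 receptor genes 1 rose and 6 fell, 29.2% beside the 25.5% of all genes. These counts varied with the mouse left out. Tlr12 had -2.96 and -3.79 in LL and -0.35 and -0.35 in WW. Tlr8 was at least 7.89-fold lower (means -5.66 and -2.17, adjusted p = 0.00397). Il6, Csf1, Il23a, Ifnb1, Il33, Il15, Lif, Il11 and Socs3 lost their calls when 1 of the mice was left out (1 or more of LL 1, LL 2, WW 1 and WW 2), with an adjusted p of up to 0.148 (Il33, without WW 2).

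Acute phase proteins, which blood and epithelium carry in injury, had the highest list median (2.01). Of 24 tested, 13 were higher (18, 15, 9 and 9) and 1 was lower. Saa3, the serum amyloid A of extrahepatic tissue, had 6.201 and 8.21 in LL and 1.25 and 1.02 in WW, a difference of 6.08 (SE 0.70, adjusted p = 0.0113) or 67.4-fold. Saa1 had 4.19 and 6.39 in LL and 0.10 and -0.12 in WW and Saa2 1.46 and 2.83 in LL and -3.22 and -3.96 in WW; the coding sequences of both are nearly identical, so each probe may detect the other. LL 2 lay above LL 1 for the 3 genes, and both lay far above WW. Serpina3n, a protease inhibitor of the acute phase, had 3.76 and 4.39 in LL and 0.69 and 0.62 in WW, and Orm1, the carrier orosomucoid, 0.20 and 0.24 in LL and -2.51 and -2.68 in WW; closely related family members share their sequence. The metallothioneins Mt1 and Mt2, which bind zinc and copper, rose: Mt2 had 7.67 and 8.57 in LL and 4.76 and 4.72 in WW and Mt1 7.78 and 8.61 in LL and 5.62 and 5.69 in WW. Lcn2, the siderophore binder lipocalin 2, differed by 2.401 but did not pass (5.74 and 7.68 in LL and 4.33 and 4.29 in WW, adjusted p = 0.0667). Itih4 was the member that fell (1.36 and 1.92 in LL and 3.98 and 4.097 in WW). In LW, Saa3 stood at 3.05 and 2.78 and Mt2 at 4.41 and 4.71. Among these genes, Saa3, Saa1 and Mt1 lost their calls when 1 of the mice was left out (1 or more of WW 1 and WW 2), with an adjusted p of up to 0.0677 (Saa1, without WW 2).

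Complement and coagulation genes moved both ways. Among 20 complement genes 7 rose and 9 fell (higher counts 6, 2, 1 and 1; lower 8, 10, 5 and 5), and the list's median of -0.32 became 0.17 over the 19 genes above background on all 4 arrays. Those that fell were the C1q chains, Hc, the receptors C5ar1 (-2.75) and C3ar1 (at least 3.67-fold lower, means -5.85 and -3.27, adjusted p = 0.00683), properdin, Cfp (-1.75), C6 and Cd55. Factor B, Cfb, which forms the alternative convertase, rose from 2.47 and 2.37 to 4.43 and 4.96 (2.27, SE 0.21, adjusted p = 0.00861), and C3 rose from 7.35 and 7.29 to 7.92 and 8.31. Of 21 coagulation genes 8 rose (7, 3, 4 and 1 with a mouse left out) and 3 fell. F3, tissue factor, the starter of coagulation, had 5.19 and 4.83 in LL and 2.702 and 2.43 in WW, a difference of 2.45 (SE 0.18, adjusted p = 0.00648); the plasminogen activator Plat had 1.697 and 2.35 in LL and 0.08 and -0.56 in WW. F7 (-4.24 and -3.84 in LL and -1.06 and -0.73 in WW), F5 (-2.69, SE 0.26) and F13a1 (-3.97, SE 0.67), which myeloid cells express, fell. In left-out fits, C5ar1, Cfp, C3, Plat and F13a1 lost their calls when 1 of the mice was left out (1 or more of LL 2, WW 1 and WW 2), with an adjusted p of up to 0.143 (C5ar1, without WW 2).

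Most interferon-stimulated genes were higher with all 4 mice in the fit. Of 26 tested, 17 were higher and none lower, median 0.80, but the higher count was 12, 6, 0 and 2 with LL 1, LL 2, WW 1 or WW 2 left out. Isg15, a ubiquitin-like modifier, had 4.48 and 4.96 in LL and 2.92 and 3.02 in WW, and Irf7, a transcription factor of the response, 4.78 and 4.92 in LL and 3.48 and 3.71 in WW. LW 2 had 3.53 for Isg15 and 4.16 for Irf7, above both WW mice. Cell death effectors rose in 7 of 22 cases and fell in 2 (higher counts 8, 4, 2 and 3): the necroptosis pair Ripk3 and Mlkl had 1.35 and 1.41 in LL and 0.22 and -0.10 in WW and 0.49 and 0.75 in LL and -0.71 and -0.94 in WW, and the survival factor Bcl2l1, which encodes BCL-XL, 6.32 and 6.51 in LL and 5.17 and 5.29 in WW. Casp1, the inflammasome protease of myeloid cells, fell (-0.61 and 0.05 in LL and 1.02 and 1.195 in WW). The share called among p53 targets was 28.6%, near the 25.5% of all genes. Of 21 p53 targets 4 rose and 2 fell (higher counts 3, 1, 3 and 0; lower 1, 0, 1 and 0); Cdkn1a had the largest difference, and Mdm2, the feedback target, did not pass (4.02 and 4.2 in LL and 4.098 and 3.85 in WW). Calls of Isg15, Irf7, Bcl2l1 and Casp1 were lost when 1 of the mice was left out (1 or more of WW 1 and WW 2), with an adjusted p of up to 0.105 (Casp1, without WW 2).

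Immediate early genes, induced within minutes of a stimulus, rose in 11 of 20 cases (9, 6, 8 and 4). Fosl1, which encodes the AP-1 subunit FRA-1, was not well above background in WW and was at least 15.9-fold higher (means -0.87 and -6.45, adjusted p = 0.00397), and Egr4 was at least 41.9-fold higher (means 0.53 and -5.901, adjusted p = 0.0115). Egr1 had 5.52 and 4.58 in LL and 2.48 and 1.73 in WW, Maff 3.54 and 3.28 in LL and 1.36 and 0.87 in WW, and Junb 5.75 and 5.88 in LL and 4.58 and 4.24 in WW. Atf3, a stress-induced transcription factor, had 1.65 and 1.58 in LL and -0.16 and -0.83 in WW. The list of integrated and endoplasmic reticulum stress held 5 higher and 6 lower of 27 (higher counts 4, 2, 3 and 2), with no lower call in any left-out fit. Psat1 of serine synthesis (2.67 and 2.56 in LL and 0.41 and 0.29 in WW) and the transcription factor Atf4 (0.82, SE 0.12) rose, and the chaperones Hsp90b1 (-0.62, SE 0.12) and Pdia4 (-0.60, SE 0.11) fell. Of 19 NRF2 and glutathione genes 7 rose (7, 1, 2 and 1), led by Akr1b8 (4.48 and 4.59 in LL and 3.303 and 3.12 in WW), and catalase, Cat, fell (1.501 and 1.17 in LL and 2.701 and 2.59 in WW). Egr4, Egr1, Atf3, Atf4, Hsp90b1, Pdia4 and Cat lost their calls when 1 of the mice was left out (1 or more of LL 1, LL 2, WW 1 and WW 2), with an adjusted p of up to 0.133 (Pdia4, without WW 1).

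Hormone and clock genes shifted as well. Fkbp5, a glucocorticoid receptor target, had 3.63 and 4.37 in LL and 1.43 and 1.87 in WW, a difference of 2.35 (SE 0.31, adjusted p = 0.014), and 5 of 12 glucocorticoid genes were higher with none lower (6, 4, 1 and 2 with a mouse left out). Nr1d1, the clock repressor REV-ERB alpha, had 2.81 and 2.24 in LL and 0.36 and 0.34 in WW, Nfil3 1.63 and 2.25 in LL and -0.02 and 0.38 in WW, and Cry1 -1.65 and -1.75 in LL and -2.85 and -2.901 in WW. Arntl, which Nr1d1 represses, rose too (0.86), and of 15 clock genes 5 rose (6, 5, 2 and 2) and none fell. The share called was 33.3% for the clock genes and 33.3% for the glycolysis genes that follow, beside 25.5% of all genes. The time of day of harvest is not given in the sources used here. Glycolysis genes held 5 higher and 1 lower of 18 (higher counts 4, 0, 0 and 0; lower 1, 2, 1 and 0): Pkm, pyruvate kinase, had 5.801 and 5.86 in LL and 4.901 and 4.997 in WW, and the lactate exporter Slc16a3, a gene of macrophages among others, fell (0.25 and 0.66 in LL and 1.63 and 2.07 in WW). Among these genes, Fkbp5, Nfil3, Arntl, Pkm and Slc16a3 lost their calls when 1 of the mice was left out (1 or more of LL 1, LL 2, WW 1 and WW 2), with an adjusted p of up to 0.0883 (Arntl, without WW 2).

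Matrix genes rose more than they fell. Of 19 collagen chains 10 were higher and 1 lower (higher counts 5, 2, 4 and 1). Col4a1 of the basement membrane had 5.01 and 5.43 in LL and 3.48 and 3.17 in WW, a difference of 1.895 (SE 0.20, adjusted p = 0.0106), its partner Col4a2 4.88 and 5.21 in LL and 3.62 and 3.203 in WW, and Col1a1 of fibrils 4.42 and 4.61 in LL and 3.399 and 3.08 in WW. Of 19 provisional matrix genes 10 rose (7, 5, 7 and 5) and 2 fell: tenascin C, Tnc, had -2.13 and -1.397 in LL and -4.47 and -4.47 in WW, elastin, Eln, 2.68 and 3.2 in LL and 0.72 and 0.59 in WW, and the crosslinking enzyme Lox 3.34 and 4.11 in LL and 1.77 and 1.37 in WW. LL mice lay above WW mice for each. Tgfbi, which macrophages secrete in quantity, fell (0.51 and 1.41 in LL and 3.46 and 3.67 in WW). Of 19 proteases and inhibitors 9 rose (6, 6, 4 and 4) and 2 fell: Timp1, the inhibitor raised in injured tissue, had 4.72 and 5.897 in LL and 1.39 and 1.098 in WW, a difference of 4.07 (SE 0.43, adjusted p = 0.0101) or 16.7-fold, Adamts4, an aggrecanase, 1.84 and 3.85 in LL and -1.51 and -2.06 in WW, and Mmp3, stromelysin, 2.52 and 2.74 in LL and 1.32 and 1.06 in WW. Mmp12, the macrophage elastase, fell by 2.85 and was well above background on 1 LL array. In left-out fits, Col4a2, Col1a1, Lox, Tgfbi, Adamts4 and Mmp12 lost their calls when 1 of the mice was left out (1 or more of LL 2, WW 1 and WW 2), with an adjusted p of up to 0.0985 (Mmp12, without WW 1).

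Genes of the vessel wall and stroma moved both ways. Of 31 lung endothelial genes 3 rose and 5 fell, 25.8% beside 25.5% of all genes, and no call was made without WW 1 or WW 2. The junction gene Cdh5 had 3.79 and 4.004 in LL and 4.09 and 4.09 in WW and Pecam1 1.004 and 1.14 in LL and 0.93 and 0.41 in WW, and neither passed. Vwf, which activated endothelium and larger vessels make, rose (6.47 and 6.83 in LL and 5.64 and 5.76 in WW), as did Lyve1 of lymphatics and other cells (4.53 and 5.04 in LL and 3.64 and 3.296 in WW), while Kit (0.59 and 1.13 in LL and 1.98 and 2.06 in WW) and Ednrb (-0.69 and -0.81 in LL and 0.31 and -0.01 in WW), genes of capillary subtypes, fell. Of 14 endothelial activation genes 3 rose and 1 fell, 28.6% in all (higher counts 6, 3, 0 and 0; lower 1, 1, 0 and 0): the leukocyte ligand Icam1 had 6.21 and 6.62 in LL and 5.12 and 5.04 in WW. Ackr1, a chemokine carrier of venules, had 0.34 and 3.61 in LL and -2.12 and -1.802 in WW and P-selectin, Selp, -1.31 and 1.35 in LL and -2.03 and -2.405 in WW; neither passed, with LL 2 well above LL 1 for both. Among 14 smooth muscle and pericyte genes 2 fell (14.3%; lower counts 2, 2, 0 and 0), and Acta2 (5.45 and 4.96 in LL and 5.13 and 5.08 in WW) and Myh11 (1.29 and 1.18 in LL and 1.12 and 1.29 in WW) did not pass; both change sign under quantile normalisation. Of 20 fibroblast genes 5 rose and 2 fell, 35% in all (higher counts 3, 2, 3 and 0; lower 5, 1, 1 and 1), Pdgfra among the former (3.98 and 4.05 in LL and 3.14 and 3.13 in WW) and the lipofibroblast esterase Ces1d among the latter (1.86 and 2.02 in LL and 3.48 and 3.11 in WW). Of 14 genes of the cardiac muscle around pulmonary veins 5 fell, as in Myl4 (4.75 and 4.45 in LL and 5.63 and 5.73 in WW), and 1 rose (higher counts 0, 0, 0 and 0; lower 4, 3, 0 and 0). Calls of Vwf, Lyve1, Kit, Ednrb, Icam1, Pdgfra and Myl4 were lost when 1 of the mice was left out (1 or more of LL 1, LL 2, WW 1 and WW 2), with an adjusted p of up to 0.104 (Kit, without WW 2).

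Among named genes counted as above background on all 4 arrays, the largest rise was that of Efcab3, an EF-hand gene of which little is known. Its levels were 1.896 and 0.68 in LL and -6.099 and -5.204 in WW. The difference was 6.94 (SE 0.53, adjusted p = 0.00651), with both other probes moving the same way. These WW values lay below those of Hist1h3g (-4.84 and -5.12), which was not well above background in WW. No fold is therefore given for Efcab3. Efcab3 stood at -5.81 and 0.16 in WL and at -6.596 and -6.299 in LW. Gys2, the liver form of glycogen synthase, was not well above background in WW and was at least 40.2-fold higher (means 0.47 and -6.73, adjusted p = 0.00559), with -7.37 and 0.47 in WL and -6.69 and -2.62 in LW. Both genes were thus high in LL and in 1 of the WL mice. Pla1a, a phosphatidylserine phospholipase, had 2.93 and 3.48 in LL and -0.91 and -0.51 in WW, Phgr1, a gene of gut epithelium, 1.34 and 2.29 in LL and -2.15 and -2.21 in WW, and the ephrin receptor Epha8 0.49 and -0.12 in LL and -3.73 and -4.08 in WW. In the other direction Tinag, a basement membrane protein, and Mesp1, a mesodermal transcription factor, were not well above background in LL and were at least 33.4-fold and at least 16.1-fold lower (means -5.82 and -0.09, and -6.73 and -1.14; adjusted p = 0.00397 and 0.00647). Tinag and Mesp1 were low in WL 2 too, at -4.93 and -7.58. Among genes above background on all 4 arrays and after the exclusions of the naming rule, Stfa1, a cathepsin inhibitor of neutrophils (0.87 and 2.48 in LL and -3.14 and -1.98 in WW), and the adhesion molecule Chl1 (-0.40 and 1.47 in LL and -3.905 and -3.29 in WW) completed the 15 largest rises, and Sirpb1b, a myeloid receptor (-3.23 and -1.7 in LL and 1.87 and 2.52 in WW), the 15 largest falls. Among the bounds, Akap4, Psors1c2 and Mslnl were at least 18.6-fold, at least 7.66-fold and at least 6.52-fold higher (adjusted p = 0.00725, 0.015 and 0.0186), and the macrophage receptor Adgre4 and Skint3 were at least 9.71-fold and at least 14.3-fold lower (adjusted p = 0.0053 and 0.00973). Atf7 fell by 4.45 at its brightest probe, but 2 of its 4 other probes moved the other way. Stfa1, Chl1, Sirpb1b, Psors1c2 and Mslnl lost their calls when 1 of the mice was left out (1 or more of LL 1, LL 2, WW 1 and WW 2), with an adjusted p of up to 0.0809 (Chl1, without WW 1).

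**Figure D5:**
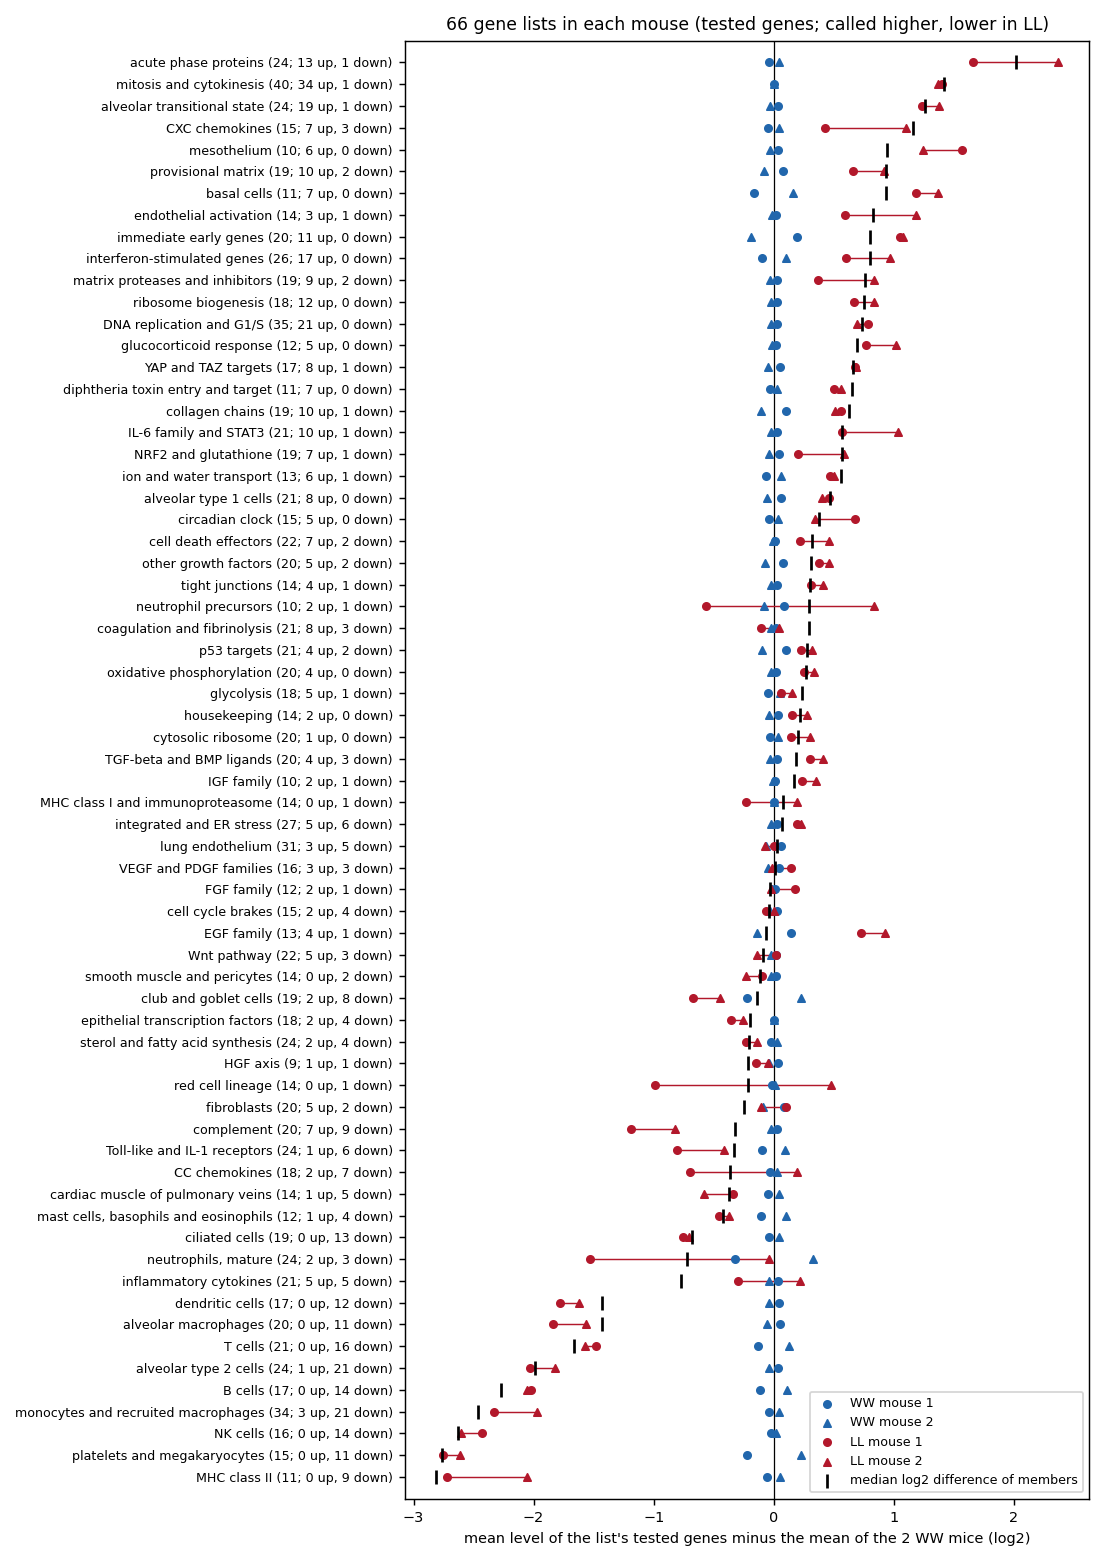
Mean level of the tested genes of each of 66 lists in each mouse relative to the WW mean (log2), LL in red and WW in blue, with the median difference of the members as a black bar; lists are ordered by that median, and the count of tested and called genes stands beside each name. Lists of macrophages, lymphocytes, platelets, MHC class II and type 2 cells lie at the low end, and acute phase, mitosis and transitional lists at the high end; the red cell and neutrophil lists show the widest gaps between the LL mice.

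Set beside the chimeras with the transgene on 1 side, as a description without a test, list means of LL were shared in part. For mitosis, WL lay 1.03 and 1.43 and LW 0.02 and -0.15 from the WW mean. For type 2 cells the values were -0.03 and -1.78 in WL and 0.05 and -0.19 in LW. For monocytes and recruited macrophages they were 0.22 and 0.72 in WL and -0.07 and -0.23 in LW, none near the LL values of -2.33 and -1.97. Platelet genes lay at -0.51 and -0.19 in WL and -0.54 and -0.89 in LW, against -2.75 and -2.61 in LL. The WL mice differed from each other in most lists, so a group mean describes neither.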

How the data were processed

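Total RNA of whole lung was labelled with Cy3 and hybridised to 1-colour Agilent mouse arrays, per the labels' protocols. The deposited scanner files hold intensity values that Agilent Feature Extraction 11.5.1.1 had background-subtracted, per the file headers, with probe positions on mm9. The authors also deposited a series table of log2 values, used here only as an alternative. From the scanner files, non-uniform spots were dropped, spots of a probe averaged, log2 taken and the array's 75th percentile subtracted. Probes well above background on both arrays of LL or of WW were kept (38750 of 56605), and each gene was represented by its brightest kept probe. limma 3.58.1 (R 4.3.3) was fitted to the 4 arrays without a replicate block, and p-values were adjusted by Benjamini-Hochberg over all 25338 genes. The script was tested on simulated data. Samples were grouped by the genotype in their labels; WL and LW entered no main test. The number of arrays limits the precision. The comparison, the gene lists and the promoter motifs were chosen with earlier results of these data known. Genes named in the text are the 15 largest called changes each way among genes above background on all 4 arrays with non-overlapping groups, the 8 largest bounds each way, the 10 called genes brightest in each group, and list members with the largest changes or a defining role; predicted genes, clones, receptor segments and olfactory receptors were left out. Promoters came from RefSeq (GRCm38.p6). Alternatives in background correction, scaling, filtering, probe choice, variance model, samples and replicates are given in the closing section.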

Additional observations from a re-analysis of the deposited data

How the results depend on the processing

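The count of 6469 called genes stayed within 1.5 times under normexp, other scalings, the filter on all 4 arrays, a gene's mean or median probe, the deposited log2 table and a trended prior (6300 to 8124). With every probe tested for itself, 9451 of 38750 probes were called. The count of called genes fell to 1774 with no detection filter (780 higher, 994 lower). It fell to 842 with all 8 arrays in the fit (340 and 502), and to 552 against a fold of 2 (197 and 355). With a mouse left out it ran from 1770 to 4436, with 855 to 2079 higher and 902 to 2357 lower. The share of higher among called genes, 53.9% in the main fit, was 43.97% without the filter, 40.4% on 8 arrays and 35.7% against a fold of 2. A replicate block gave 4636 calls, 2297 of them higher. Deviations of same-numbered mice correlated at 0.057 across genes, so the numbers are not shown to pair the mice. The cause of these differences was not tested beyond the number of genes and samples in each fit.

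Some named genes that were not called changed sign. Quantile normalization gave -0.136 for Acta2, -0.070 for Eef2, -0.081 for Mdm2, -0.004 for Myh11 and 0.000 for Scgb1a1, and the percentile over detected probes gave -0.011 for Myh11. The mean of probes gave 0.969 for Trp63 and -0.040 for Dph3, a called gene. With a mouse left out, Acta2 ran from -0.141 to 0.340, Alas2 from -1.662 to 1.368, Hbb-b1 from -1.654 to 1.081, Myh11 from -0.057 to 0.115, S100a8 from -1.282 to 0.897 and S100a9 from -2.220 to 0.278. Of 295 named or plotted genes, 198 lost their call on 8 arrays, 173 against a fold of 2 and 99 without the filter. Their directions were unchanged. On 8 arrays and against a fold of 2 the group means are the same as in the main fit, so this was fixed in advance. Medians of lists of mixed direction, such as fibroblasts, CC chemokines and complement, changed sign under at least 1 alternative.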
